A study of Mus musculus with 8 samples.

Results

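The nuclear-encoded genes of the mitochondrial respiratory chain were followed in the hippocampus of Jade2-knockout and wild-type control mice. RNA came from C57BL/6 mice at 8 weeks of age, with 4 knockout and 4 wild-type libraries, and no other genotype or treatment is labelled. The labels state neither how the Jade2 allele was made nor whether each library is a separate animal. No p-value given here can therefore be taken to account for the spread between animals. Jade2 encodes a PHD-finger protein of the HBO1 histone acetyltransferase complexes. Members were the transcripts whose gene symbol begins with Nduf, Atp5, Uqcr or Cox followed by 4 to 8, or is Sdha to Sdhd, plus unnamed transcripts of the same loci. Described here are 5 transcripts of 4 genes, among the 1679 transcripts of the deposited table. No unnamed transcript shared a locus with them (0).

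The respiratory chain passes electrons from NADH and succinate to oxygen through complexes I to IV and stores the energy as a proton gradient, which complex V, the ATP synthase, uses to make ATP. Most subunits are encoded in the nucleus and imported, and a small core is encoded by mitochondrial DNA. Neurons rely on this pathway to pay for ion pumping and synaptic transmission.

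The table is itself a selection on the contrast described here. In the authors' deposited table no unadjusted p exceeds 0.0498 and no log2 fold change is below 1.00 in absolute size. It holds 1.6% of the 104721 transcripts over which the authors' p-values were adjusted. A difference between knockout and control in a listed transcript is therefore a description, and isoforms outside the list were not analysed here. The annotated Jade2 transcript ENSMUST00000109091 was listed at 0 in all 4 knockouts and between 1.41 and 5.05 FPKM in the controls, and the merged model MERGE.3721.8 of its locus was likewise at or near 0 in the knockouts. The merged models MERGE.3721.1, MERGE.3721.3 and MERGE.3721.4 of the locus went the other way, at 0 in all 4 controls and between 0.501 and 12.3 FPKM in the knockouts. FPKM is abundance scaled by transcript length and by the size of the library. Because the table holds no counts, read depth is unknown, and the hippocampal identity of the tissue was not checked on a list of selected transcripts.

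By complex, the described transcripts were 3 of complex I, from 2 genes, 1 of complex IV and 1 of complex V. The 4 complex II genes and 8 complex III genes of the annotation, with 16 and 32 annotated transcripts, had 0. The listed share of annotated transcripts was 1.38% in complex I, 1.64% in complex IV and 1.04% in complex V. In GENCODE M21 the genes considered here are 93 protein-coding genes with 423 transcripts, of which 4 genes (4.3%) and 5 transcripts (1.18%) were listed. The same shares over all 21951 protein-coding genes were 4.36% of genes and 1.06% of transcripts. The shares of the respiratory genes leave out a listed transcript that the rule finds and that is not reported here, with its gene. Those over all coding genes leave out nothing. With that omission, these genes were listed at a share close to that of all coding genes, with no test made of that difference.

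Most of the listed isoforms were not the ordinary coding messenger of their gene. Ndufaf3-202, Ndufb8-207 and Cox7b-203 are annotated as retained-intron transcripts with no coding sequence. Ndufb8-209 encodes a product with another last stretch. Only Atp5h-202 carries the complete reference coding sequence, of 483 bases. Retained-intron transcripts made up 3 of the 5 members (60%), against 19% of the 1076 listed transcripts of coding genes and 25.5% of the annotated transcripts of respiratory genes. The share of the members rests on only 5 transcripts, and the difference was not tested. No APPRIS principal transcript, the annotation's reference coding isoform, of Ndufb8, Ndufaf3 or Cox7b was in the table.

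**Figure D1:**
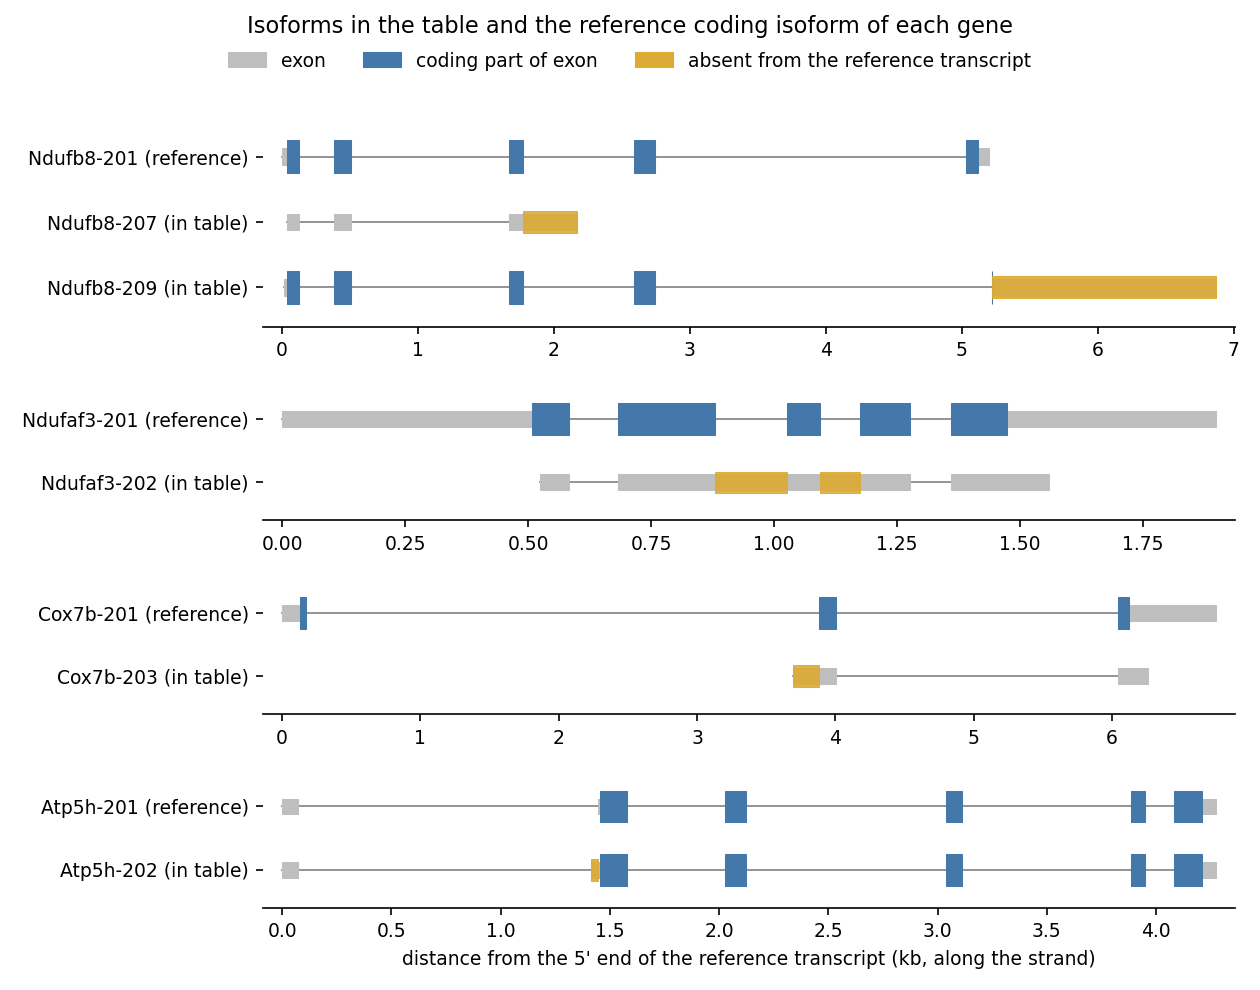
Exon maps of each isoform in the table and of the reference coding isoform of its gene. The x axis is the distance in kb from the 5' end of the reference transcript along the strand, grey marks exons, blue the coding part of exons and yellow the bases absent from the reference transcript. The yellow stretch is 1649 bases in Ndufb8-209, 394 in Ndufb8-207 and 34 in Atp5h-202.

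The stretches that set these isoforms apart from the reference transcript of their gene are shown. Each isoform was compared with that transcript only, so other annotated isoforms may share these bases. All sequences are from GENCODE M21 transcripts (GRCm38, the build also called mm10), 5' to 3' along the transcript. For the retained-intron isoforms, capitals mark intron bases and lower case the exon bases of the reference transcript. Cox7b-203 begins inside the first intron, and the last 60 of its 188 intron bases are shown with the start of exon 2 (chrX:106019519-106019618, plus strand). Both retained introns of Ndufaf3-202 are shown whole (chr9:108566388-108566575 and chr9:108566240-108566360, minus strand). Ndufb8-207 reads on past the end of exon 3, and the first 60 of its 394 intron bases are shown (chr19:44553609-44553708, minus strand).
Cox7b-203: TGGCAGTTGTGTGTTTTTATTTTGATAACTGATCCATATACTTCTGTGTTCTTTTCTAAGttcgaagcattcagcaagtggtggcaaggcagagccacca
Ndufaf3-202 intron 1: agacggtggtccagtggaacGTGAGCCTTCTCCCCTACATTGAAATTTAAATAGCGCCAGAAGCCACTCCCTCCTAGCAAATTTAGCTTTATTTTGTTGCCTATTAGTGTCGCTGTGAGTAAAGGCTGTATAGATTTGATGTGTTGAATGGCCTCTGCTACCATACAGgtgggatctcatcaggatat
Ndufaf3-202 intron 2: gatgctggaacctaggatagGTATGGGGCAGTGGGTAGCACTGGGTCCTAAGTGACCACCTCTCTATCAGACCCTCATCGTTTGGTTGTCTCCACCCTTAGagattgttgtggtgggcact
Ndufb8-207: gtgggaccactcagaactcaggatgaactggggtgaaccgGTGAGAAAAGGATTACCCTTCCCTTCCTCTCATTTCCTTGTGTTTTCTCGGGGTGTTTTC

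For the coding isoform Ndufb8-209, capitals mark the coding bases and stop codon of the last exon, which differs, and lower case the exon before it, which both isoforms share. The coding part of the last exon has 90 bases before the stop codon in the reference Ndufb8-201 (chr19:44550320-44550412 with the stop, minus strand) and 3 in Ndufb8-209 (chr19:44550215-44550220), so the listed isoform ends 87 coding bases earlier.
Ndufb8-201: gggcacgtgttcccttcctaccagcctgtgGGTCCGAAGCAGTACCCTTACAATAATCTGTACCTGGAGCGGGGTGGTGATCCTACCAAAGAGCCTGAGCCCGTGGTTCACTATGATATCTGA
Ndufb8-209: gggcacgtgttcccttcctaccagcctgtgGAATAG

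By the direction in the authors' deposited table, 3 of the 5 transcripts had the higher level in the knockout and 2 the lower one, beside 48.5% with the higher level over the whole table. Cox7b-203 and Ndufaf3-202 were lower in all 4 knockouts than in any control, and Ndufb8-207 was higher in all 4 knockouts than in any control. For the other 2 the groups overlapped. The groups did not overlap, with the knockout higher, in 19.7% of listed transcripts, and with the knockout lower in 16.4%. The listing already selects for such separation, so nothing is read from the members' counts. A value of 0 occurred in at least 1 library for 2 of the 5 members and for 41.2% of listed transcripts. The zeros are in single isoforms of their genes, and whether they are failed estimates was not tested. Single library values are given for those 2.

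**Figure D2:**
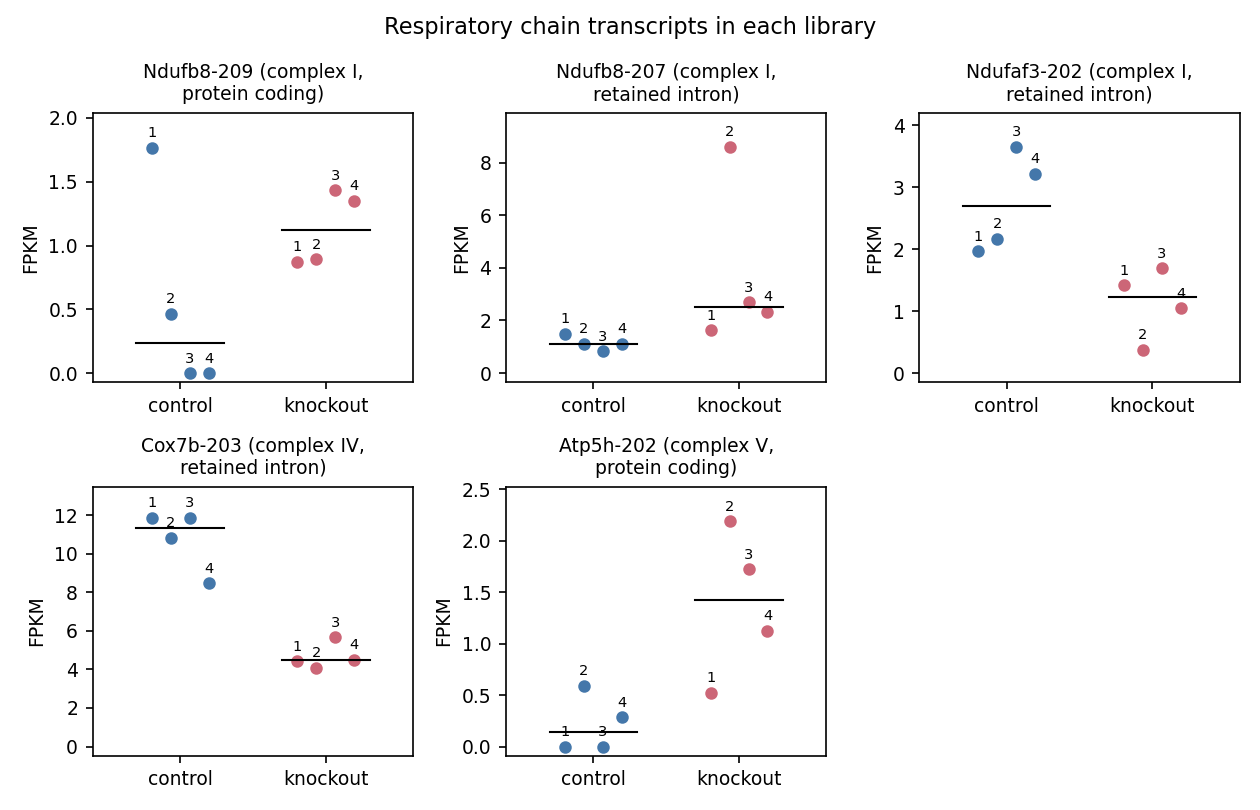
Abundance of the 5 respiratory chain transcripts in each library, in FPKM on a linear axis with its own range in each panel. Points are single libraries numbered by replicate, blue for control and red for knockout, and the black line is the group median. Cox7b-203, Ndufaf3-202 and Ndufb8-207 separate the groups, and the other 2 overlap.

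Complex I, the NADH dehydrogenase, had the most listed transcripts and also the most annotated ones, 218 of 423. Ndufb8 encodes an accessory subunit of the membrane arm and was the only described gene with more than 1 listed transcript. Ndufb8-207 (ENSMUST00000169181, chromosome 19, 44553275 to 44555405, minus strand, 3 exons) stood at 1.49, 1.12, 0.828 and 1.11 FPKM in controls 1 to 4. In knockouts 1 to 4 it stood at 1.64, 8.60, 2.70 and 2.34 FPKM. All 4 knockouts lay above the highest control, knockout 1 by a small margin, and knockout 2 stood far above the rest. The means were 3.82 ± 3.21 FPKM in knockout and 1.14 ± 0.273 FPKM in control libraries (SD, n = 4 each). The log2 difference was 1.17 (SE 0.471, n = 4 per group), and without knockout replicate 2 it was 0.73.

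Ndufb8-209 (ENSMUST00000171415, chromosome 19, 44548572 to 44555426, minus strand, 5 exons, protein coding) stood at 1.76 and 0.466 FPKM in controls 1 and 2 and was listed at 0 in controls 3 and 4. In knockouts 1 to 4 it stood at 0.874, 0.894, 1.43 and 1.35 FPKM. The highest of the 8 values was thus a control, although the other 3 controls lay below every knockout. The log2 difference was 0.91 (SE 0.533, n = 4 per group), and without control replicate 1 it was 1.38. Of its exon bases 134 also belong to a transcript of Gm20538, an annotated readthrough gene on the same strand.

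Summed over both listed isoforms, Ndufb8 stood at 3.26, 1.59, 0.828 and 1.11 FPKM in controls 1 to 4 and at 2.51, 9.49, 4.14 and 3.69 FPKM in knockouts 1 to 4. Control 1 lay above knockout 1 and the other controls lay below every knockout. The log2 difference of the sum was 1.28 (SE 0.490, n = 4 per group), without a test. The retained-intron isoform made up 45.8, 70.6, 100 and 100% of the sum in controls 1 to 4 and 65.2, 90.6, 65.3 and 63.4% in knockouts 1 to 4. These shares overlapped between the groups, and the 100% values come from the zeros of Ndufb8-209.

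Ndufaf3 encodes an assembly factor that helps build complex I and is not part of the finished enzyme. Ndufaf3-202 (ENSMUST00000193242, chromosome 9, 108565877 to 108566910, minus strand, 3 exons) stood at 1.96, 2.17, 3.65 and 3.22 FPKM in controls 1 to 4. In knockouts 1 to 4 it stood at 1.42, 0.374, 1.69 and 1.05 FPKM. All 4 knockouts lay below the lowest control, and knockout 2, the highest library for Ndufb8-207, was the lowest here. The means were 1.13 ± 0.569 FPKM in knockout and 2.75 ± 0.814 FPKM in control libraries (SD, n = 4 each), 2.43 times as high in the control. The log2 difference was -1.04 (SE 0.344, n = 4 per group). This isoform keeps introns of 148 and 81 bases between exons that the reference transcript joins.

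In complex IV, the cytochrome c oxidase, the single listed gene was Cox7b, on the X chromosome, which encodes a small accessory subunit. Cox7b-203 (ENSMUST00000155377, chromosome X, 106019391 to 106021958, plus strand, 2 exons) stood at 11.9, 10.8, 11.9 and 8.48 FPKM in controls 1 to 4. In knockouts 1 to 4 it stood at 4.43, 4.09, 5.66 and 4.49 FPKM. The groups were well apart, and each was narrow, with a coefficient of variation of 14.7% in the knockout and 14.8% in the control. The means were 4.67 ± 0.684 FPKM in knockout and 10.8 ± 1.59 FPKM in control libraries (SD, n = 4 each), 2.31 times as high in the control. The log2 difference was -1.12 (SE 0.142, n = 4 per group). Of its 526 bases, stretches of 205 to 209 match 4 processed pseudogenes at 92.7 to 96.1% identity, so its estimate is uncertain where reads were divided among these copies.

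In complex V the single listed gene was Atp5h, which encodes subunit d of the stalk that holds the ATP synthase head in place. Atp5h-202 (ENSMUST00000073791, chromosome 11, 115415689 to 115419962, minus strand, 6 exons, protein coding) was listed at 0 in controls 1 and 3 and stood at 0.594 and 0.287 FPKM in controls 2 and 4. In knockouts 1 to 4 it stood at 0.526, 2.19, 1.73 and 1.13 FPKM. Knockout 1 lay below control 2, and the other 3 knockouts lay above every control. The log2 difference was 1.38 (SE 0.410, n = 4 per group). The isoform differs from Atp5h-201 only by 34 further bases at the start of exon 2, before the coding sequence, and Atp5h is annotated with 8 transcripts. In addition 6 processed pseudogenes match 280 to 486 of its 659 bases at 90.3 to 99.0% identity, so this isoform cannot be separated with confidence from its near-identical copies.

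None of the 5 passed a test over all transcripts. In the authors' deposited table the adjusted p was 0.355 for Cox7b-203 and 0.888 for each of the other 4, beside 0.893% of listed transcripts under 0.05. Those averaging 1 FPKM or more across the 8 libraries were also tested with limma on the log2 scale, adjusted over the 104721 transcripts. Of the members 3 were tested, 2 lower and 1 higher, and 0 passed an adjusted p of 0.05 (limma adjusted p = 1 for each), beside 0 of the 849 listed transcripts tested (0%). Jade2 transcript ENSMUST00000109091, at 0 in every knockout, did not pass either (limma adjusted p = 0.506). The absence of calls therefore cannot show that a member is unchanged. The unadjusted limma p was 0.0249 for Cox7b-203, 0.0283 for Ndufaf3-202 and 0.0347 for Ndufb8-207, and 70.6% of the tested transcripts had one under 0.05. The limma standard error of Cox7b-203 was 0.429, against 0.142 from its own libraries, because limma draws each spread towards that of transcripts of like abundance. The median log2 difference was 0.91 over the 5 members and -0.51 over the whole table, and the median absolute difference was 1.12 and 1.06. The value of 0.91 is that of Ndufb8-209, which has zeros. Over the 3 tested members the median had the opposite sign, at -1.04, beside -0.64 over all tested transcripts.

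The size of a difference moved more with the pseudocount in the 2 members with a 0 than in the other 3. For the 3 members without a 0 the authors' deposited table gives log2 fold changes of -1.27 for Cox7b-203, -1.53 for Ndufaf3-202 and 1.37 for Ndufb8-207. These lie within 0.5 of the differences on the log2(FPKM + 0.5) scale. For the 2 members with a 0 it gives 4.22 for Ndufb8-209 and 4.13 for Atp5h-202. With a pseudocount of 0.1 the differences of these 2 were 1.92 and 2.56, and with 1 they were 0.58 and 0.95. For Ndufaf3-202 the values were -1.33 and -0.83, for Ndufb8-207 1.39 and 0.99, and for Cox7b-203 -1.185 and -1.05. The 2 members with a 0 also averaged under 1 FPKM, so zeros and low levels cannot be told apart here. The direction was the same at each pseudocount and with each library left out, for all 5 members. For the 3 members whose groups did not overlap, no other outcome was possible. The listing on this same contrast made it likely for the other 2, so nothing is read from it.

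**Figure D3:**
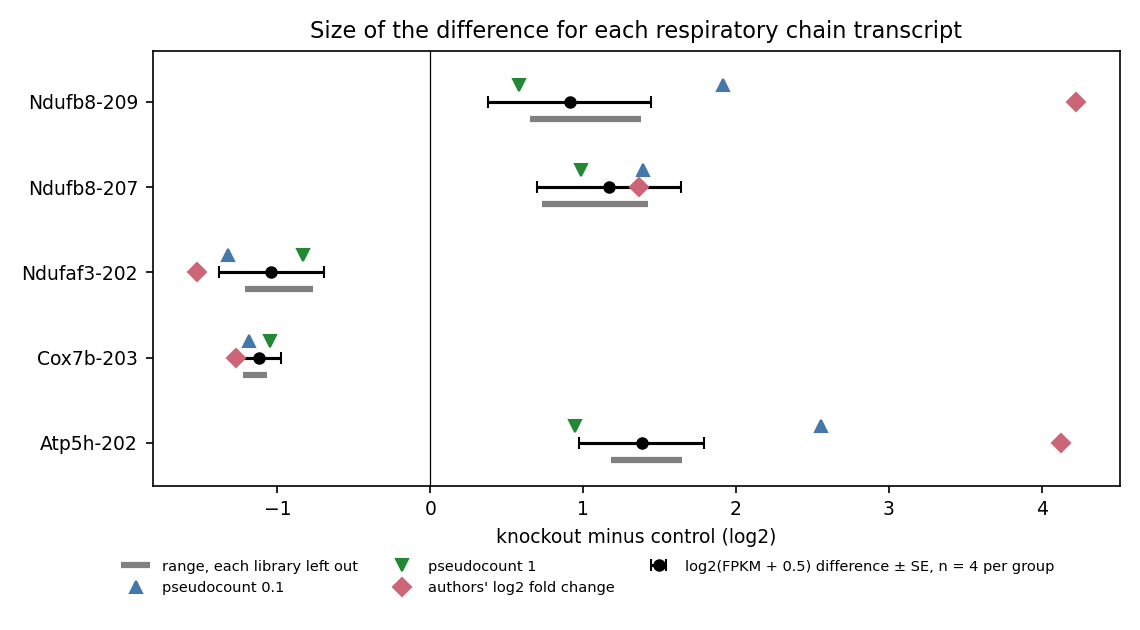
Difference of each respiratory chain transcript, knockout minus control, on a log2 scale. Black points are the log2(FPKM + 0.5) difference with its SE (n = 4 per group), grey bars the range when each library is left out, triangles other pseudocounts and red diamonds the authors' log2 fold change. The red diamonds lie beyond 4 for the 2 transcripts that have a 0 in some library and near the black points for the other 3.

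FPKM is scaled by length, so levels can be set side by side. In the controls the mean order was Cox7b-203, Ndufaf3-202, Ndufb8-207, Ndufb8-209 and Atp5h-202. The libraries of the first 3 did not overlap between neighbours in that order, and those of the last 3 did. In the knockouts the order was Cox7b-203, Ndufb8-207, Atp5h-202, Ndufb8-209 and Ndufaf3-202, and each pair of neighbours overlapped. Likeness was measured as the root mean square difference of standardised log2(FPKM + 0.5) over the 8 libraries, where 0 is an identical pattern. Closest to Cox7b-203 were Ep400 ENSMUST00000112436, at 0.20, and the unnamed model MERGE.25926.8, at 0.23, with a median over the table of 1.01. Closest to Ndufaf3-202 were the unnamed model MERGE.5101.7, at 0.28, and Grb10 ENSMUST00000150972, at 0.29, with a median of 1.22. Closest to Ndufb8-207 were Mapk10 ENSMUST00000128869, at 0.19, and the unnamed model MERGE.20331.1, at 0.32, with a median of 1.355. Among the described transcripts Cox7b-203 and Ndufaf3-202 were closest to each other, at 0.60, and Atp5h-202 was closest to Ndufb8-207, at 0.56. Every transcript was listed on this same contrast, so those of the same direction are alike by that choice. Nothing is read from these pairs.

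A further model fell outside the rule because the table gives it no symbol and no other listed transcript shares its locus. MERGE.2898.4 (chromosome 10, 94199037 to 94220948, plus strand) lies within Ndufa12, an accessory subunit gene of complex I, and covers 96.4% of it. It stood at 0, 0.409, 17.3 and 0.318 FPKM in controls 1 to 4 and at 33.7, 18.0, 33.9 and 37.8 FPKM in knockouts 1 to 4. Control 3 was near knockout 2 and far from the other controls. The log2 difference was 4.24 (SE 1.20, n = 4 per group), with a limma adjusted p = 1 and an adjusted p of 0.888 in the authors' deposited table. Its exons were not analysed here, and it was chosen after its values were seen.

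Other energy metabolism genes were counted from 8 lists. They held 22 listed transcripts, 11 higher and 11 lower in the knockout. Of these, 9 were tested with limma, 0 passed the adjusted p, 6 had an unadjusted p under 0.05, beside 70.6% of all tested transcripts, and 0 had an adjusted p under 0.05 by the authors' deposited values. Of the 22, 4 are annotated as protein coding, 11 as retained-intron transcripts, 5 as targets of nonsense-mediated decay and 2 as other processed transcripts. Over all listed transcripts of coding genes the shares were 65.8% protein coding, 19% retained intron, 7.99% targets of nonsense-mediated decay and 7.16% processed transcripts, and the difference was not tested. No transcript of the 15 mitochondrially encoded genes was listed.

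Assembly factors and carriers outside the name rule had 1 higher and 4 lower transcripts, in 3 of 46 genes. None of these is annotated as protein coding. Surf1 ENSMUST00000183520 and the Atpaf2 and Foxred1 isoforms named here are annotated targets of nonsense-mediated decay. Surf1, a complex IV assembly factor, had ENSMUST00000183520 at 0.544 ± 0.184 FPKM in knockout and 2.29 ± 0.994 FPKM in control libraries (SD, n = 4 each), with no overlap. A second Surf1 isoform, the retained-intron ENSMUST00000142967, averaged 0.194 ± 0.123 and 0.702 ± 0.348 FPKM (SD, n = 4 each), with overlap. Atpaf2, which helps assemble the ATP synthase head, had ENSMUST00000145532 at 0.975 ± 0.655 FPKM in knockout and 2.45 ± 1.07 FPKM in control libraries (SD, n = 4 each), with overlap. Foxred1, a complex I assembly factor, had the only higher one, ENSMUST00000154691, listed at 0 in 3 of the 4 controls.

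Among regulators of mitochondrial biogenesis, 3 of 18 genes were listed, 2 higher and 1 lower. Nrf1 encodes a transcription factor known to bind promoters of respiratory genes, and its isoform ENSMUST00000132866 averaged 0.320 ± 0.291 FPKM in knockout and 0.946 ± 0.388 FPKM in control libraries (SD, n = 4 each). The groups overlapped, as knockout 1 lay above control 2. Gabpb2, a subunit of the ETS-family factor GABP, had the retained-intron isoform ENSMUST00000070774 at 0.700 ± 0.0839 FPKM in knockout and 0.309 ± 0.222 FPKM in control libraries (SD, n = 4 each). Gabpb1 ENSMUST00000110424, from the gene of another GABP subunit, stood at 1.37, 0.451, 2.48 and 2.51 FPKM in knockouts 1 to 4 and at 1.43, 0, 0.655 and 0 FPKM in controls 1 to 4.

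Tricarboxylic acid cycle and pyruvate entry genes had 2 higher and 3 lower transcripts. Idh2, the mitochondrial NADP-dependent isocitrate dehydrogenase, was listed in both directions. Its retained-intron isoform ENSMUST00000139178 averaged 1.25 ± 0.281 FPKM in knockout and 0.460 ± 0.162 FPKM in control libraries (SD, n = 4 each). Its isoform ENSMUST00000125542 is annotated as a target of nonsense-mediated decay. In knockouts 1 to 4 that isoform stood at 0.243, 0.168, 2.79 and 0.127 FPKM. In controls 1 to 4 it stood at 2.25, 0.817, 1.92 and 2.40 FPKM. Knockout 3 lay above every control and the other 3 knockouts lay below every control. Pdha1 ENSMUST00000156531, a retained-intron isoform of a pyruvate dehydrogenase subunit gene, averaged 0.217 ± 0.0845 and 0.691 ± 0.195 FPKM (SD, n = 4 each). Mitochondrial ribosomal proteins had 3 higher and 1 lower, glycolysis 2 higher and 1 lower, mitochondrial import 1 lower, in Timm44, and nucleotide carriers and porins 1 higher, in Vdac2.

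**Figure D4:**
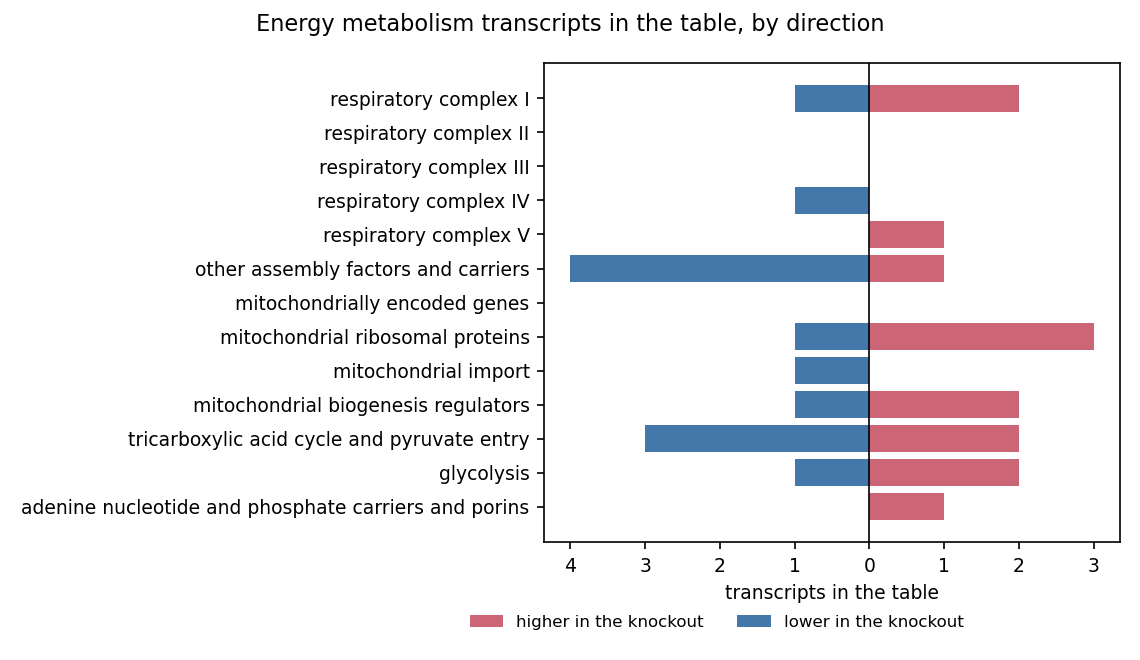
Number of transcripts in the table for each respiratory complex and each energy metabolism list, with those higher in the knockout to the right (red) and those lower to the left (blue). Complexes II and III and the mitochondrially encoded genes have 0, and complex I has 2 higher and 1 lower.

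Markers of other cell types were also listed, each through 1 isoform, so the values below are not gene totals. The Map2 isoform ENSMUST00000145419 averaged 0.426 FPKM over the 8 libraries, and the Tagln isoform is annotated as a retained-intron transcript. Over all protein-coding genes, 4.36% had a listed transcript. Of microglia, 1 of 8 marker genes was listed, Csf1r, lower in the knockout, at 1.57, 0.0573, 0.0992 and 0.0140 FPKM in knockouts 1 to 4 and 21.3, 2.53, 1.64 and 1.19 FPKM in controls 1 to 4. The highest value of each group was 1 library far above the rest, and knockout 1 lay above control 4. Of vascular and meningeal cells, 4 of 11 were listed, Tagln, Ly6c1, Col1a2 and Acta2, all higher, with sums of 12.9 to 21.9 FPKM in the knockouts and 1.78 to 14.2 FPKM in the controls, where control 4 was the single control above any knockout. Neuron and oligodendrocyte lineage lists had 1 listed gene each, Map2 and Mag, both lower, with knockout sums of 0 to 0.531 and 0.619 to 2.42 FPKM and control sums of 0.546 to 0.670 and 2.53 to 2.97 FPKM. Astrocyte, ependymal and choroid plexus markers had 0. Their part in the respiratory chain values was not tested, and in tissue RNA fewer cells of a type and less RNA per cell cannot be told apart.

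NRF1, GABP and YY1 are known regulators of respiratory genes, and their motifs were sought in the promoters. RefSeq windows of 300 bases, 250 before to 50 after the start site (GRCm38.p6), were matched by symbol for all 4 genes, Ndufaf3, Atp5h, Ndufb8 and Cox7b. The NRF1 motif was taken as GCGC, any 2 bases and GCGC again, the ETS motif as CCGGAAG and the YY1 motif as AAGATGGCG, on both strands. Among all 32851 windows 6.23% held the NRF1 motif, 8.86% the ETS motif and 1.4% the YY1 motif, against 26.5, 22.9 and 9.64% of the 83 windows of respiratory genes. Of the 4 member windows, Atp5h held both an NRF1 and an ETS motif, and the other 3 held none of the motifs in these letters. The Atp5h matches (window chr11:115419870-115420169, minus strand) start at -141 and -38 relative to the start site and are shown in capitals with 10 bases on each side.
Atp5h NRF1 match: gaccccgacgGCGCAGGCGCcgcgcccgcc
Atp5h ETS match: aaggagagaaCTTCCGGcaactctctt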

How the data were processed

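The authors' deposited table gives transcript abundances of 8 hippocampal libraries without naming their unit. They are taken as FPKM, since HISAT2 and Cuffdiff on mm10, with no versions, stand in the submitters' processing notes. The log2 fold changes and the p-values are also the authors' deposited values. No source used here states the test behind them or the strand setting. Without counts, neither depth nor counting error is known.

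Groups came from the sample titles. The number of transcripts the authors adjusted over, 104721, was derived as adjusted over unadjusted p at the smallest p. Transcripts averaging 1 FPKM or more were fitted with limma 3.58.1 (R 4.3.3) on log2(FPKM + 0.5) with a variance trend, two-sided, with Benjamini-Hochberg adjustment over 104721 transcripts. The pseudocount shrinks differences at low abundance. The script was tested on simulated data. Isoforms were matched by Ensembl identifier to GENCODE M21 (5 of 5, with identical coordinates), copies were sought with BLAST 2.17.0 (at least 90% identity over 100 bases), and promoters came from RefSeq. Tables and figures used Python 3.11.15.

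The members and lists were chosen with earlier results of these data known. The rule finds 6 transcripts of 5 genes, of which 1 transcript is not reported here, and counts of members and lists leave out what is not reported. Each described member is named, with up to 4 transcripts of each list and the 2 closest patterns for each member with a mean of at least 1 FPKM. Alternatives were other pseudocounts, filters, scaling, adjustment and variance settings, a replicate block and each library left out.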

Additional observations from a re-analysis of the deposited data

Results flagged for a closer look

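A single library stood apart from the rest of its group, past Dixon's 95% critical value, in 2 of the 12 groups of 4 examined. Among unselected groups of normally distributed values about 1 in 20 would pass it. These transcripts were listed on the same values, and MERGE.2898.4 was chosen after its values were seen. No excess is therefore read from this count. Ndufb8-207 stood at 8.60 FPKM in knockout replicate 2, where the next knockout was at 2.70 FPKM. The unnamed model MERGE.2898.4 within Ndufa12 stood at 17.3 FPKM in control replicate 3, where the next control was at 0.409 FPKM.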

How the results depend on the processing

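No described respiratory chain transcript was called by limma under any of the 16 alternatives run, so the count was 0 throughout, also with a replicate block. The reported fit did not call Jade2 transcript ENSMUST00000109091 either, so these counts cannot show that a member is unchanged. Among all listed transcripts 0 were called in the reported fit, 7 with no filter on low values, 185 when adjusted over the tested transcripts only, and 0 to 4 with a library left out (1 without control replicate 1, 4 without control replicate 2 and 1 without control replicate 4). No member changed direction, which the listing on this same contrast made likely beforehand. With a pseudocount of 0.1 the difference was 2.56 for Atp5h-202. The summed Ndufb8 difference ran from 0.94 to 1.58 with a library left out. With no filter, 4 of the 5 members had an unadjusted limma p under 0.05. Of the 3 tested members all had one in the reported fit, and 1 did without control replicate 3, without control replicate 4 or without knockout replicate 2. Replicate numbers gave no pairing: the correlation of same-numbered libraries lay between -0.033 and 0.041. The replicate block left 1 of 3 members and 519 of 849 transcripts, against 599, at an unadjusted p under 0.05. A mean of at least 5 FPKM left only Cox7b-203 among the members. Unknown depth limits all values near 0.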
